A study of Mus musculus with 37 samples.

Results

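Genes of the antiviral interferon response, together with the Trim, Parp and Stat families, were examined in mouse myeloid cells given the anti-inflammatory cytokine IL-10, the endotoxin LPS, or both. Members were taken by name (sensors of viral RNA and DNA, Oas, Gbp and Irg genes, other Ifi genes and interferon-induced effectors, Trim, Parp and Stat genes), after the transcripts of each gene were summed. A highest value of at least 10 over the 18 groups was required. All 57 matching names met it, out of 6509 genes in the copy of the table used here. The lowest of the members' highest values was 52.5, for Gbp1, followed by 211.5 for Trim68, so no matching gene lay just under the minimum. The copy ends within a line, so it holds only part of the genes and may lack some transcripts of those held. Mx, Isg15, Rsad2, Slfn and Ifitm genes, Dhx58, Stat3, Stat5a and Stat5b were not in it and were not analysed here. By role the members were 3 sensors, 8 Oas genes, 8 GTPases, 9 other effectors, 20 Trim genes, 5 Parp genes and 4 Stat genes.

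RNA-seq had been performed on cells of C57Bl6cJ mice: adherent peritoneal macrophages elicited with thioglycolate, neutrophils isolated from bone marrow, dendritic cells enriched from spleen (sDCs), and eosinophils and mast cells, both cultured from bone marrow. Macrophages, neutrophils, sDCs and mast cells were untreated, or received IL-10, LPS, or IL-10 and LPS, each at 100 ng/ml. Eosinophils were untreated or received LPS. LPS was given for 4 h after 4 h with or without IL-10, and groups without LPS were harvested before that second period, so LPS and longer culture cannot be told apart. Neutrophils came from pooled mice and had been kept overnight in GM-CSF. For each transcript the deposited table lists 1 value a group, which is the authors' mean of 2 replicates (36 libraries in all). Such means come without SD or n, so no difference was tested. "Raised" and "lowered" below mean that 2 group means differed by 2-fold or more, with 1 added to each value before log2 was taken. Levels are GC-normalized tag counts that are not divided by transcript length, so they are compared between groups for 1 gene, not between genes. The depth of the libraries is unknown from the table.

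The highest summed level of each marker list over the treatments lay in the cell type of its label. The copy holds only some of each list, and single markers went against it. The summed level of 4 of 10 macrophage markers (Emr1, Cd68, Itgam, Mrc1), 6 of 11 neutrophil markers, 3 of 10 sDC markers, 3 of 10 mast cell markers and 2 of 9 eosinophil markers had its highest value in the cells of that name. The macrophage markers summed to 116271.5 to 249075 over the macrophage groups and to 44157 to 144477.5 over the neutrophil groups, so these ranges overlap. In neutrophils the eosinophil markers summed to 19648 to 23628 and B cell markers (3 of 5 held) to 3122 to 4744. The sDC markers rested on Ccr7, which stood at the table's common highest value of 185338 in untreated sDCs. Another of them, Itgax, was higher in untreated macrophages (13861) than in sDCs (4075.5), and the neutrophil marker Ly6g was at 188.5 in untreated eosinophils and 161.5 in neutrophils. In sDCs the summed neutrophil markers lay between 2312.5 and 9761.5. In bulk RNA, fewer cells of a type and less RNA per cell cannot be told apart.

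Interferons are sensed by receptors whose JAK kinases activate STAT transcription factors, which bind interferon-stimulated response elements or GAS elements. The genes so induced include the RNA sensors, the 2′-5′ oligoadenylate synthetases (OAS) that activate an RNA-degrading enzyme, guanylate-binding proteins (GBP) and immunity-related GTPases that act on the vacuoles of intracellular microbes, and many Trim and Parp genes. LPS induces interferon-β in macrophages through TLR4, and IL-10 signals mainly through STAT3.

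Promoters of the GTPases are shown because LPS and IL-10 alone each raised all or nearly all of this list in macrophages and neutrophils, which IL-10 did not do in sDCs or mast cells. RefSeq promoters (GRCm38.p6) were found for 7 of the 8 GTPases, all but Gbp1. In the 250 bases before the start site, the core of the response element (GAAA, any 2 bases, GAAA) was searched on both strands, where it reads TTTC, any 2 bases, TTTC on the other, and lay in 7 of these 7 genes. A gene was counted if any of its start sites had the core, and the second start site of Gbp3 had none. It lay in 3.46% of the 27025 genes in the table, but the list was picked for display with the 7 of 7 known, so nothing is read from the difference. Of the other lists, the core lay in 4 of 6 matched Oas genes, 1 of 7 other effectors and 0 of 2 sensors. The GAS core (TTC, any 3 bases, GAA), which reads the same on both strands, lay in 4 of 7 (Gbp5, Gbp7, Igtp and Irgm2), beside 8.13% of all genes, and none of its copies overlapped a response element core. Ifi47, an immunity-related GTPase counted here among the other effectors, had neither core. LPS and IL-10 alone each raised it in macrophages and neutrophils as well. Stretches of 80 bases follow, with the response element core in capitals and overlapping copies joined.
Gbp2: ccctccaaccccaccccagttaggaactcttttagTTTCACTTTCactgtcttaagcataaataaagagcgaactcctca
Gbp3: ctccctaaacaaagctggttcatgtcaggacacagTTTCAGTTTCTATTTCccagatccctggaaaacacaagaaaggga
Gbp5: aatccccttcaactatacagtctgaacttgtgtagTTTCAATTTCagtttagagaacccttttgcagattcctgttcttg
Gbp7: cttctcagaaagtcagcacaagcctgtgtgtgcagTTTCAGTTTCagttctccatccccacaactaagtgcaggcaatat
Igtp: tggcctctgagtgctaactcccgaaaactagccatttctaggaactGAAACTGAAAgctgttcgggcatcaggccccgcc
Irgm1: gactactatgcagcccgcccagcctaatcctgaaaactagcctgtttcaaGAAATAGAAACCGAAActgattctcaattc
Irgm2: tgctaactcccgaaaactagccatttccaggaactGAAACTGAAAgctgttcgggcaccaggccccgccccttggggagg

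On GRCm38.p6 the Gbp stretches lie on the plus strand at chr3:142620569-142620648 (Gbp2), chr3:142559964-142560043 (Gbp3, the first of 2 start sites), chr3:142496734-142496813 (Gbp5) and chr3:142530248-142530327 (Gbp7). Those of Igtp and Irgm2 lie on the plus strand at chr11:58199476-58199555 and chr11:58214878-58214957, and that of Irgm1 on the minus strand at chr11:48871421-48871500. Among the Trim genes the response element core lay in 4 of 17 matched genes (Trim5, Trim12c, Trim30a and Trim30d), and the GAS core lay in 1 of 17 (Trim30c). Trim5 was called with LPS in no cell type, although it has the core and lies in the same chromosome 7 group as the other 3. Trim6, Trim12a, Trim30b, Trim30c and Trim34a of that group were each raised by LPS in at least 1 cell type and lack the core. The stretches of the 3 raised genes with the core are shown in the same way, so nothing is read from their pairing. Trim30a is shown from the first of its start sites, and the other had no core.
Trim12c: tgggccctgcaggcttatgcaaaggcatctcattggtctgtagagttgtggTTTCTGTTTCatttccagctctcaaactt
Trim30a: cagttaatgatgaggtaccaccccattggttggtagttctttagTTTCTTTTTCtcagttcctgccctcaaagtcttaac
Trim30d: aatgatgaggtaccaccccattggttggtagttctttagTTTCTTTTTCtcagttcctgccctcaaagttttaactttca

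These lie on the minus strand of chromosome 7, at chr7:104353350-104353429, chr7:104465194-104465273 and chr7:104507850-104507929. Only 44 of the 57 members (77.2%) had a promoter in the table, fewer than the 80% set for such a check, so no share over all members is given. The Oas genes (75.0% matched), other effectors (77.8%) and sensors (66.7%) were also under it, so their counts above are not read as shares. A match of letters describes the sequence and shows no binding. In the files' own build (NCBIM37), 38 of the 57 members lay in 11 groups of neighbours with gaps of at most 1000000 bases. The Gbp genes lay together on chromosome 3 (142159864 to 142300972), 6 Oas genes on chromosome 5 (121180342 to 121357536), and 9 Trim genes on chromosome 7 (111367307 to 111656363). Reads of near-identical neighbours (the Oas1, Trim30, Trim12 and Gbp genes) could have been split between them, so their single values are uncertain.

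In untreated cells the members had the highest level in sDCs for 22 of 57 genes, in macrophages for 17, in mast cells for 11, in eosinophils for 4 and in neutrophils for 3. As shares these are 38.6%, 29.8%, 19.3%, 7.02% and 5.26%, beside 20.1%, 24.4%, 25.3%, 17.6% and 12.6% of the 6470 genes that reached 10 in some untreated group. The lead over the cell type in second place reached 2-fold for 10 members in macrophages (17.5%, beside 9.07% of all genes) and for 10 in sDCs (17.5%, beside 8.33%), and for 0 in the other cell types (2.98% to 6.72% of all genes). Macrophages led for 7 of 8 Oas genes. Oas1a stood at 2176 in macrophages, 218.5 in sDCs, 149.5 in neutrophils, 104 in eosinophils and 78.0 in mast cells, and Oas3 at 2096, 121, 554.5, 74.5 and 55.0 in the same order. The exception was Oasl2, an OAS-like protein, which was listed at 5030.5 in neutrophils and 2567 in macrophages, and at 267.5 or less elsewhere.

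The sDCs led among the GTPases for 4 of 8 genes, all of them Gbp genes. Gbp2 was at 16587 in untreated sDCs, 1164.5 in macrophages, 439.5 in mast cells, 78.0 in neutrophils and 25.0 in eosinophils, and Gbp5 at 4573.5 in sDCs and between 10 and 85 in the others. In contrast Irgm2 lay between 379.5 and 585 in all 5 cell types. Stat2, Stat4 and Stat6 were each highest in sDCs at rest. Stat4, which transmits IL-12 signals, had 17265 in sDCs, 1636.5 in mast cells, 439 in neutrophils, 154.5 in eosinophils and 70.5 in macrophages. Stat6, which transmits IL-4 signals, varied least among them, from 3857.5 in macrophages to 5835.5 in sDCs. All sDC libraries and 1 of the 2 mast cell replicates are listed as another library kit than the rest. For sDCs the kit and the cell type thus cannot be told apart, and the part of the kit in the mast cell values was not tested.

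**Figure D1:**
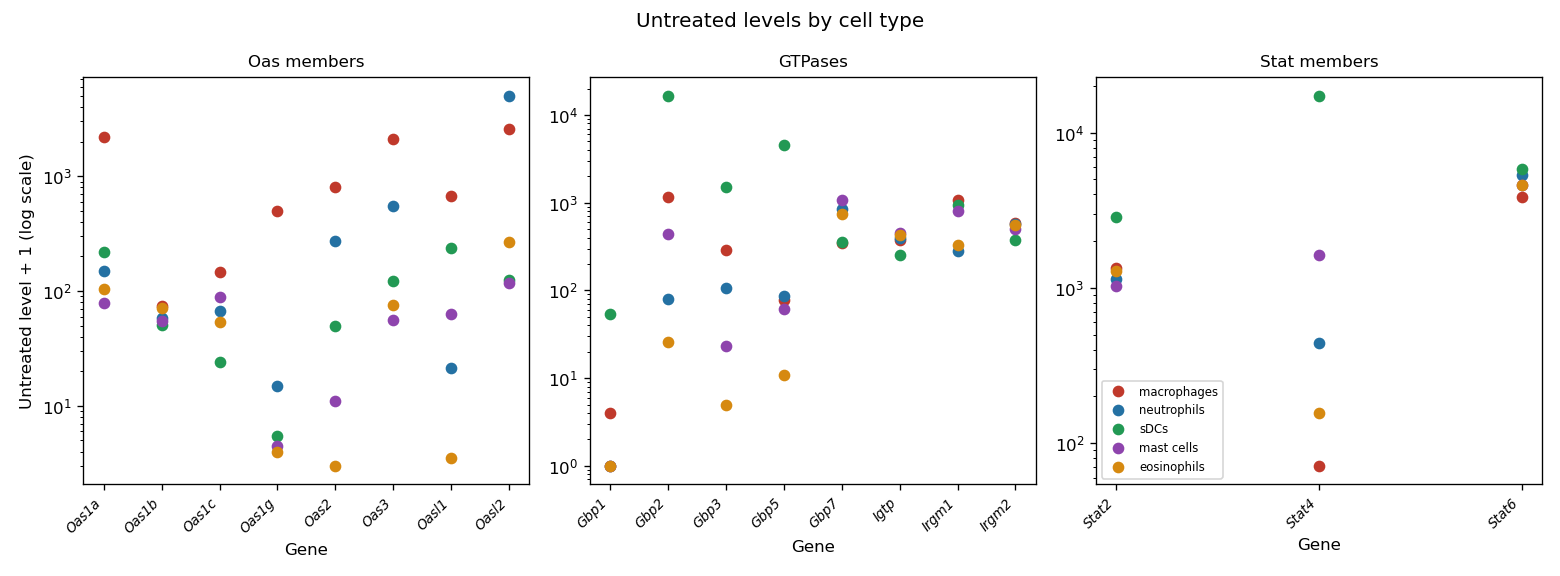
Untreated level plus 1 (log axis) of the Oas genes, the GTPases and Stat2, Stat4 and Stat6 in the 5 cell types, 1 point per group mean. Macrophages stand highest for 7 of 8 Oas genes, sDCs for 4 of 8 GTPases and for Stat2, Stat4 and Stat6.

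The first comparison asked which members responded to LPS. LPS raised 41 of 57 members in macrophages, where 12.8% of all genes were raised, and 37 of 56 in neutrophils (8.71% of all genes). In sDCs it raised 37 of 57 (9.04% of all genes), among eosinophil values 13 of 53 (2.16%) and among mast cell values 33 of 56 (4.76%). The median log2 change of the members was 2.49 in macrophages, 2.13 in sDCs, 2.07 in neutrophils, 0.33 in eosinophils and 1.30 in mast cells. The median of all genes lay between -0.15 and -0.02. Lowered members numbered 4 in sDCs (11.5% of all genes lowered), 2 in macrophages (14.8%), 1 in mast cells (5.46%), 1 in neutrophils (7.9%) and 0 in eosinophils (0.702%).

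The numbers of members differ because a level of at least 10 in some group of a cell type was required. Gbp1 failed this in neutrophils, mast cells and eosinophils, and Gbp3, Oas1g and Trim30c failed it in eosinophils. Some passed only through a treated group, which were Gbp1 in macrophages, Oas1g and Trim30c in sDCs, Ifi44, Oas1g and Rtp4 in mast cells, and Ifi44, Oas2, Oasl1, Rtp4, Trim30d and Xaf1 in eosinophils. Of the 13 eosinophil calls, 6 are thus of genes under 10 at rest.

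**Figure D2:**
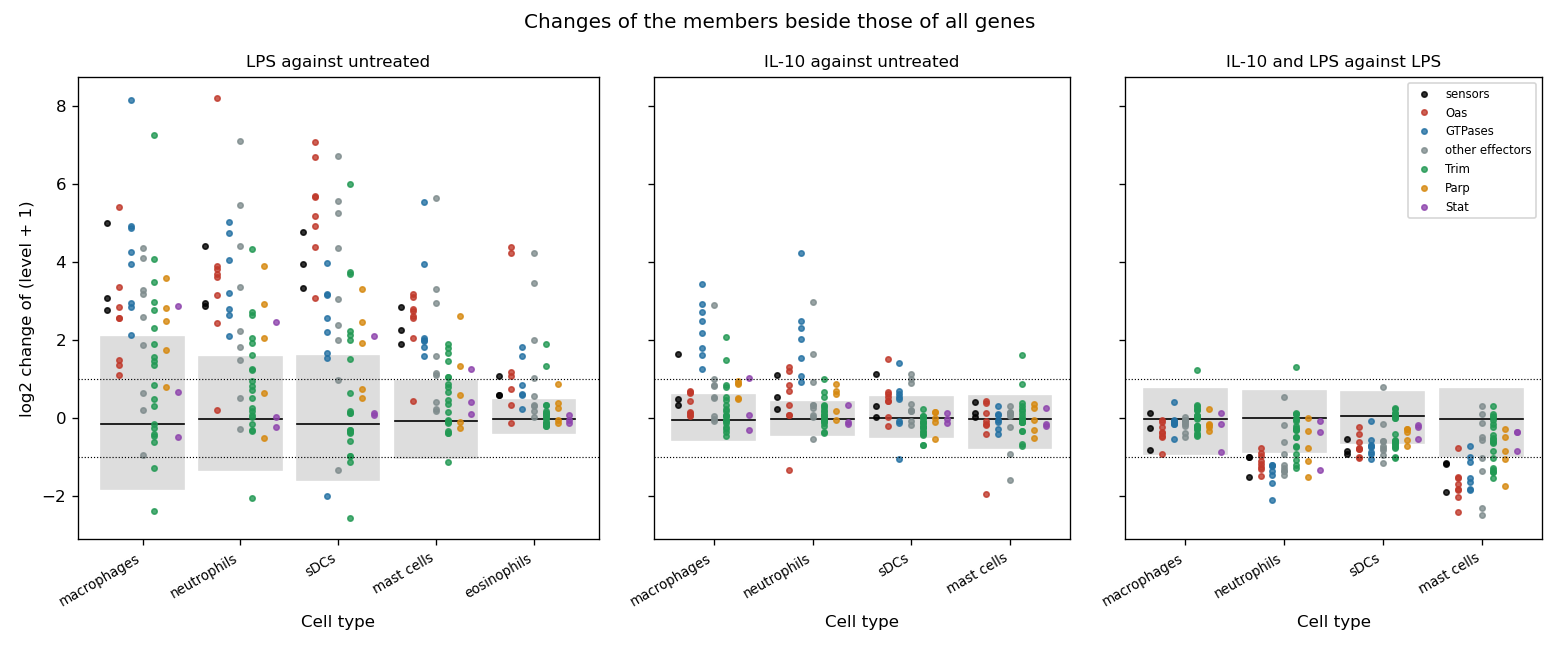
Log2 change of (level + 1) of the members in the 13 comparisons, coloured by list. Grey boxes span the 5th to 95th percentile of all genes, the black line is their median, and dotted lines mark 2-fold. With LPS most sensors, Oas genes and GTPases lie above the boxes in macrophages, neutrophils, sDCs and mast cells. With IL-10 and LPS against LPS most of them lie under the lower dotted line in neutrophils and mast cells, and none in macrophages.

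Of the 41 members that LPS raised in macrophages, 34 (82.9%) were also raised in neutrophils and sDCs, 28 (68.3%) in mast cells besides, and 12 (29.3%) in all 5 cell types. Of the 774 genes of the whole table raised in macrophages, the same numbers were 178 (23.0%), 89 (11.5%) and 38 (4.91%). The 12 were Ifih1, Oas1b, Oas2, Oas3, Oasl1, Gbp2, Gbp5, Ifi44, Ifi47, Rtp4, Xaf1 and Trim30d, of which Oas2, Oasl1, Ifi44, Rtp4, Xaf1 and Trim30d passed the minimum in eosinophils only through the LPS group, where little but a rise could be called. Among the 15 raised in none of macrophages, neutrophils and sDCs were 9 Trim genes, Ifi27l1, Ifi30, Parp3, Stat4 and Stat6, besides Trim7, which was lowered in all 3.

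The sensors were raised by LPS in macrophages, neutrophils, sDCs and mast cells, 3 of 3 in each. Ifih1 encodes MDA5, a sensor of long double-stranded RNA. Its level went from 1124 untreated to 36033.5 with LPS in macrophages, from 299.5 to 6415.5 in neutrophils, from 1139 to 17700.5 in sDCs, from 250.5 to 946 in mast cells and from 124.5 to 265.5 in eosinophils. The log2 changes were 5.00, 4.42, 3.96, 1.91 and 1.09 in that order. Ddx58, which encodes RIG-I, a sensor of 5′-triphosphate RNA, had log2 changes of 3.08, 2.88, 3.35 and 2.27 in the first 4 of these and 0.58 in eosinophils. Zbp1, a sensor of Z-form nucleic acids, changed most in sDCs, from 154 to 4274.5 (log2 change 4.79).

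Of the Oas genes, 8 of 8 were raised by LPS in macrophages and in sDCs, 7 of 8 in neutrophils and in mast cells, and in eosinophils 4 of 7. The median log2 change of the list was 5.43 in sDCs, 3.66 in neutrophils, 2.68 in mast cells, 2.56 in macrophages and 1.09 in eosinophils. The macrophages, which had the highest Oas levels at rest for 7 of 8 genes, thus had a smaller median change than sDCs. The summed level of the list with LPS was 65292.5 in macrophages and 40979.5 in sDCs, a sum that weights genes by raw count. With LPS, Oas1a (5638 in macrophages, 6735.5 in sDCs) and Oas1b (766.5 and 1062) were higher in sDCs, and the other Oas genes in macrophages. Oasl1, which restrains translation of the interferon regulator IRF7, went from 20.5 to 6340 in neutrophils (log2 change 8.20, the largest of any member there) and from 671.5 to 28802.5 in macrophages (5.42). It went from 234 to 12255.5 in sDCs, from 61.5 to 570 in mast cells and from 2.5 to 72.0 in eosinophils.

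Oas1g rose from 4.5 to 739.5 in sDCs, a log2 change of 7.07, and from 494 to 2932 in macrophages (2.57). Oasl2 rose from 125 to 13041 in sDCs (6.69) and from 117 to 790.5 in mast cells (2.75). In neutrophils, where its resting level was highest, Oasl2 stood at 5030.5 untreated and 5795.5 with LPS, a log2 change of 0.20. Oasl1 and Oasl2 are neighbours on chromosome 5 of NCBIM37 (115346943 to 115387924), so these 2 genes of 1 locus had log2 changes of 8.20 and 0.20 in the same cells. Oas1c was the Oas gene not raised in mast cells, at 88.0 untreated and 120 with LPS.

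The GTPases were raised by LPS in every case kept in macrophages (8 of 8), neutrophils (7 of 7) and mast cells (7 of 7), in 7 of 8 in sDCs and in 2 of 6 in eosinophils. The largest change of any member in macrophages was that of Gbp5, which promotes assembly of the NLRP3 inflammasome, from 77.0 to 22309 (log2 change 8.16). In sDCs, where Gbp5 was high at rest, it went from 4573.5 to 21015 (2.20). The levels with LPS in these 2 cell types were thus closer than the levels at rest. Gbp3 went from 22.5 to 1098 in mast cells (5.55) and from 288 to 8814.5 in macrophages (4.93). Gbp1 was the exception in sDCs, at 52.5 untreated and 12.5 with LPS, against 3.0 and 16.5 in macrophages.

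Among the other effectors, LPS raised 6 of 9 in macrophages and in mast cells, 7 of 9 in neutrophils and in sDCs, and 4 of 9 in eosinophils. Rtp4, a chaperone of membrane receptors, had log2 changes of 7.12 in neutrophils (17.0 to 2495.5), 6.73 in sDCs (45.5 to 4944), 5.65 in mast cells (8.5 to 477.5), 3.46 in eosinophils (2.0 to 32.0) and 2.60 in macrophages (922.5 to 5590). Xaf1, an antagonist of the apoptosis inhibitor XIAP, changed by 5.48 in neutrophils, 4.38 in sDCs, 3.29 in macrophages, 2.96 in mast cells and 2.00 in eosinophils. For Ifi44 the log2 change was 5.56 in sDCs, 4.43 in neutrophils and 4.11 in macrophages. The lysosomal thiol reductase gene Ifi30, which serves antigen processing, went the other way in sDCs, from 16395 to 6547.5 (-1.32), and was at 9471 and 4957 in macrophages (-0.93).

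The Trim family, most of whose members are ubiquitin ligases, was the most divided. LPS raised 10 of 20 Trim genes in macrophages and lowered 2. The same numbers were 8 of 20 and 1 for neutrophils, 7 of 20 and 2 for sDCs, 6 of 20 and 1 for mast cells, and 2 of 19 and 0 for eosinophils. Raised genes included the chromosome 7 group. Trim30c went from 15.5 to 2544.5 in macrophages (log2 change 7.27), from 9.5 to 678 in sDCs (6.01) and from 13.5 to 292 in neutrophils (4.34). Trim30a, a regulator of TLR signalling, changed by 3.70 in sDCs, 2.76 in macrophages, 2.63 in neutrophils, 1.66 in mast cells and 0.17 in eosinophils. Not every gene of that chromosomal group followed, since Trim5 had log2 changes between -0.35 and 0.82 over the 5 cell types.

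Trim7 went down with LPS in macrophages (61.5 to 11), neutrophils (107 to 25.0) and sDCs (2454 to 413). Its log2 changes there were -2.38, -2.05 and -2.57. In eosinophils it stood at 10 untreated and 27 with LPS (1.35), both low levels. Its neighbour Irgm1, in the same stretch of chromosome 11 (48619906 to 48910476), was raised in those first 3 cell types by 2.85, 4.05 and 3.16. Other lowered Trim genes were Trim37 in macrophages (-1.28), Trim8 in sDCs (-1.13) and Trim68 in mast cells (-1.12). Trim27, Trim33, Trim41 and Trim59 were called in no cell type.

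Of the Parp genes, which encode ADP-ribosyltransferases, LPS raised Parp9 and Parp14 in macrophages, neutrophils, sDCs and mast cells. Parp14, a partner of STAT6, went from 2218 to 26857 in macrophages (log2 change 3.60), from 1033 to 15439 in neutrophils (3.90), from 3413.5 to 33758.5 in sDCs (3.31) and from 885 to 5463.5 in mast cells (2.62). Parp9 lies beside it on chromosome 16 (35832960 to 35972691) and changed by 2.82, 2.94, 2.46 and 1.34. Parp10 was raised in the first 3 and Parp11 in macrophages only among the 5 cell types (1.75). Parp3 was called in none.

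Among the Stat genes, which encode transcription factors of cytokine signalling, Stat2 went with LPS from 1348.5 to 9887 in macrophages, from 2844.5 to 12213.5 in sDCs, from 1135 to 6294 in neutrophils, from 1024 to 2451 in mast cells and from 1281.5 to 1359 in eosinophils. Its log2 changes in that order were 2.87, 2.10, 2.47, 1.26 and 0.08, so eosinophils were the cell type without a call. The log2 changes of Stat4 in the same order were 0.67, 0.07, -0.23, 0.10 and -0.14 and those of Stat6 were -0.47, 0.14, 0.04, 0.43 and -0.05, so neither was called. Stat2 and Stat6 are neighbours on chromosome 10 (127080042 to 127729905), a neighbourhood with 1 raised and 1 uncalled gene.

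**Figure D3:**
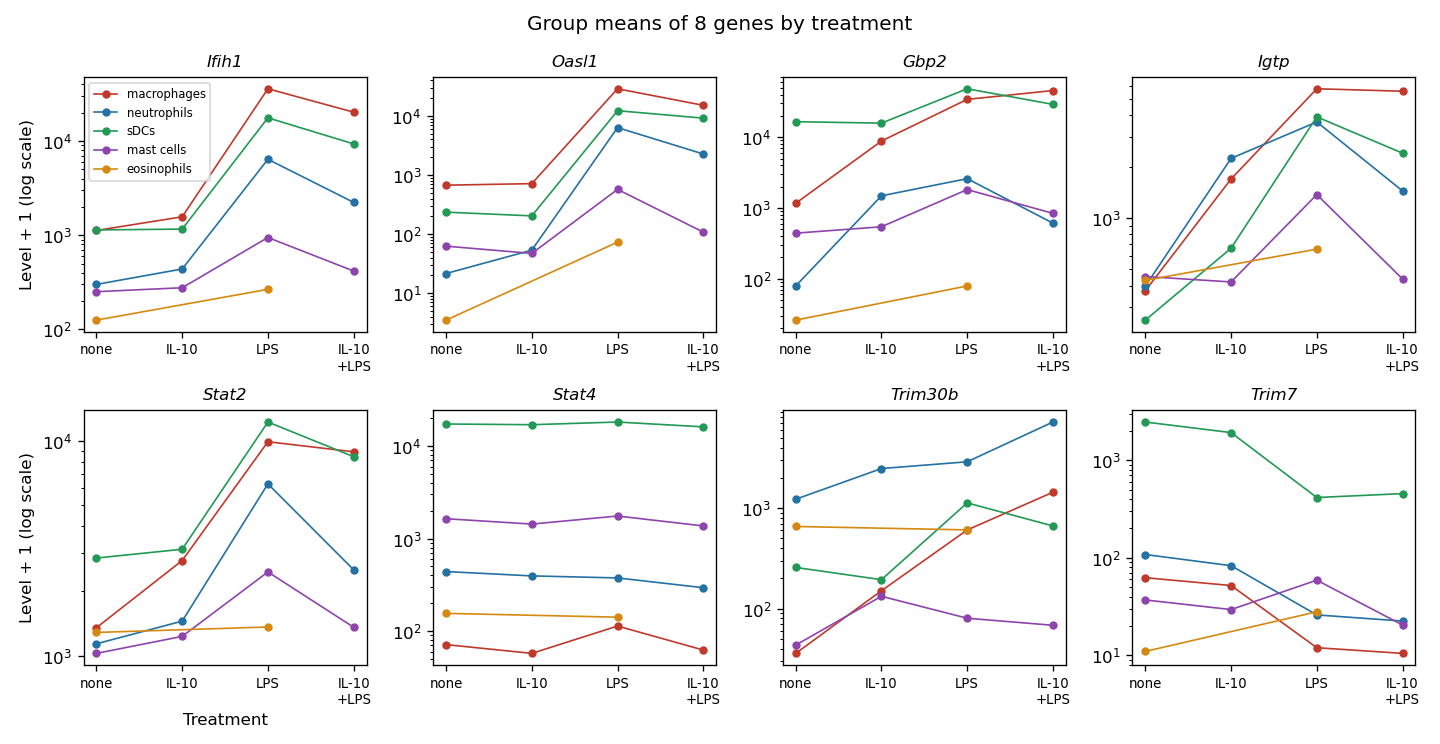
Group means plus 1 (log axis) of 8 members by treatment, with 1 line per cell type; eosinophils had no IL-10 groups. Ifih1 and Oasl1 rise with LPS in every cell type, Stat4 differs between cell types more than between treatments, Trim30b is highest with IL-10 and LPS in macrophages and neutrophils, and Trim7 falls with LPS in macrophages, neutrophils and sDCs.

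Genes of the same pathway that are no members (receptors, kinases, IRF genes and others) were counted as well. Of 22 held, from 45 listed, LPS raised 10 in neutrophils, 9 in macrophages, 9 in sDCs, 5 in mast cells and, of 21 kept there, 2 in eosinophils. Usp18, a protease that removes ISG15 and restrains interferon receptors, was raised in all 5. Its log2 change was largest for neutrophils (7.97), followed by 4.84 for macrophages, 3.30 for mast cells, 2.81 for sDCs and 2.52 for eosinophils. In neutrophils, the macrophage marker Emr1 moved with these results, at 4346 untreated and 14667.5 with LPS, while Cd68 was at 2788 and 3140. The other macrophage markers went the other way, Itgam from 136889 to 26225 and Mrc1 from 454.5 to 124.5. Markers of the neutrophils themselves were also lower with LPS, Cxcr2 at 52728 and 3210, Mmp8 at 122455 and 17265 and Mmp9 at 77310.5 and 12701.5, while Mpo (22826 and 20675), Elane (13402 and 10179) and Ly6g (161.5 and 158.5) differed less. The 4 macrophage markers together, which include Itgam of neutrophils, lay between 44157 and 144477.5 over the neutrophil groups with none at 0. The part of these markers in the neutrophil changes was not tested. Among macrophages, 1 library each of the untreated and of the IL-10 group came from an earlier publication, and its part in the LPS comparison was not tested.

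The second comparison asked what IL-10 did alone. It raised more members in macrophages and neutrophils than in sDCs and mast cells, and GTPases were 8 of the 15 raised in macrophages and 6 of the 13 raised in neutrophils. The number raised was 15 of 57 in macrophages (2.34% of all genes), 13 of 56 in neutrophils (1.26%), 4 of 57 in sDCs (1.6%) and 1 of 56 in mast cells (2.28%). Lowered were 2 members in mast cells (2.79% of all genes), 1 in neutrophils (0.941%), 1 in sDCs (0.843%) and 0 in macrophages (2.18%). The shares in sDCs and mast cells rest on a few genes each.

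IL-10 raised 8 of 8 GTPases in macrophages and 6 of 7 in neutrophils, but 1 of 8 in sDCs and 0 of 7 in mast cells. The median of these genes was 2.34 for macrophages, 2.02 for neutrophils, 0.52 for sDCs and -0.05 for mast cells on the log2 scale. Gbp2 went from 1164.5 to 8823.5 in macrophages and from 78.0 to 1484 in neutrophils, log2 changes of 2.92 and 4.23, and was at 16587 and 15813 in sDCs and 439.5 and 541.5 in mast cells. Gbp5 changed by 3.43 in macrophages and 2.31 in neutrophils. Igtp, which protects against Toxoplasma, was raised in 3 cell types, from 372 to 1692 in macrophages, from 396 to 2237 in neutrophils and from 249.5 to 662 in sDCs, and stood at 451 and 419 in mast cells. Ifi47, which encodes a further immunity-related GTPase, was raised in macrophages (2.91) and neutrophils (1.65).

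Zbp1, Rtp4 and Trim30b were the other members raised by IL-10 in 3 cell types. Zbp1 changed by 1.65 in macrophages, 1.12 in neutrophils and 1.12 in sDCs, and Rtp4 by 1.01, 2.97 and 1.13. Trim30b was raised in macrophages (35 to 150), neutrophils (1225.5 to 2475) and mast cells (42.5 to 132), and was at 256.5 and 193.5 in sDCs.

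The Oas genes gave another picture, with 0 of 8 raised by IL-10 in macrophages and in mast cells, 2 of 8 in neutrophils (Oas2 and Oasl1) and 1 of 8 in sDCs (Oas2, 48.5 to 139.5). Ddx58 and Ifih1 were called in no cell type with IL-10 alone, with log2 changes from 0.02 to 0.55. Stat2 was raised in macrophages (1.04), and had log2 changes of 0.35, 0.14 and 0.26 in neutrophils, sDCs and mast cells. Stat4 and Stat6 had log2 changes between -0.31 and 0.09. Of the 22 pathway genes, Irf1, an interferon-induced transcription factor, was the 1 raised by IL-10, in macrophages (993 to 4060) and in neutrophils (1577 to 3356).

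The lowered members were Oas1g in neutrophils (14.0 to 5.0), Gbp1 in sDCs (52.5 to 25.0), and Oas1c (88.0 to 22.0) and Ifi44 (2.0 and listed at 0) in mast cells. With 10 in place of 1 added before log2, 3 of these 4 were no longer called, all but Oas1c.

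The third comparison asked how IL-10 changed the response to LPS, and IL-10 and LPS was set against LPS alone. IL-10 lowered 25 of 56 members in neutrophils (3.88% of all genes) and 29 of 56 in mast cells (4.66%), but 4 of 57 in sDCs (2.08%) and 0 of 57 in macrophages (4.62%). Raised members numbered 1 in neutrophils (3.06% of all genes), 1 in macrophages (3.18%), 0 in mast cells (2.88%) and 0 in sDCs (2.61%). The median log2 change was -0.94 in neutrophils, -1.01 in mast cells, -0.58 in sDCs and -0.14 in macrophages, beside medians over all genes between -0.03 and 0.04.

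The 2-fold threshold cuts through the sDC and neutrophil values. At 1.5-fold, 28 of 57 members were lowered in sDCs (5.93% of all genes), 36 of 56 in neutrophils (8.79%), 36 of 56 in mast cells (11.4%) and 3 of 57 in macrophages (10.1%), so the low number in sDCs depends on the threshold and the low number in macrophages does not. In sDCs, 5 members lay between -1 and -0.9 and 3 between -1.1 and -1, and in neutrophils 6 and 4. In macrophages 41 of 57 members were below 0, and none reached -1, with Oasl1 the nearest at -0.93.

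Of members that LPS had raised, IL-10 lowered 23 of 37 in neutrophils, 26 of 33 in mast cells, 3 of 37 in sDCs and 0 of 41 in macrophages. Among all genes raised by LPS the shares were 154 of 518 (29.7%) in neutrophils, 85 of 273 (31.1%) in mast cells, 66 of 547 (12.1%) in sDCs and 140 of 774 (18.1%) in macrophages. The part of the LPS rise that was left with IL-10 had a median over these members of 85.1% in macrophages, 56.2% in sDCs, 39.0% in neutrophils and 16.1% in mast cells. Both steps use the same LPS group, so a high LPS value by itself raises the first count and lowers the part left.

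**Figure D4:**
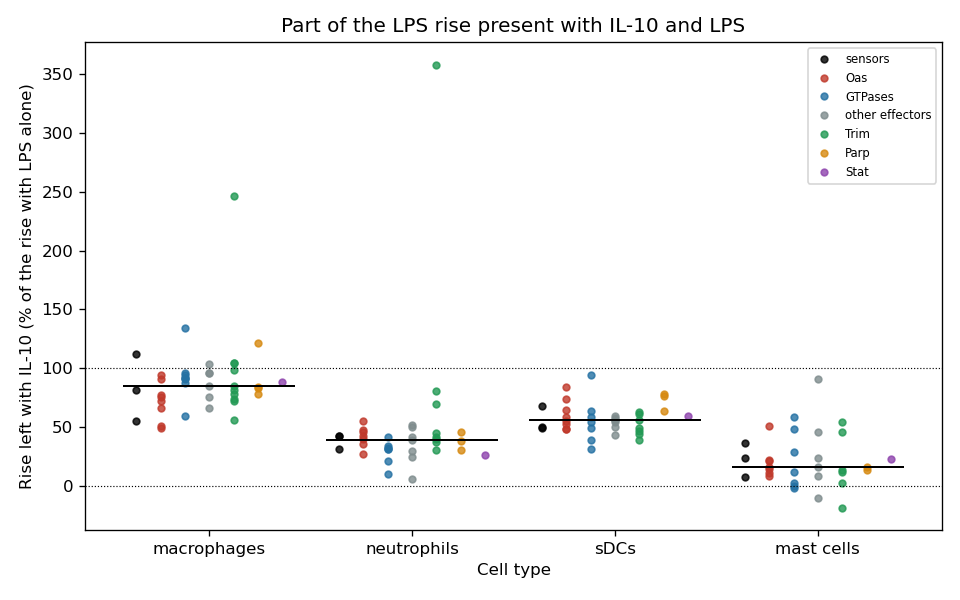
Rise over untreated with IL-10 and LPS as a percent of the rise with LPS alone, for members raised by LPS, coloured by list, with the median over all members raised as a black line. Medians are 85.1% in macrophages, 56.2% in sDCs, 39.0% in neutrophils and 16.1% in mast cells, and the 2 points above 200% are Trim30b.

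GTPases were lowered by IL-10 in 7 of 7 cases in neutrophils and 6 of 7 in mast cells, against 1 of 8 in sDCs (Gbp1) and 0 of 8 in macrophages. Gbp2 in neutrophils stood at 78.0 untreated, 1484 with IL-10, 2595 with LPS and 610 with both (-2.09 against LPS). The level with both lay below that with IL-10 alone. In macrophages Gbp2 stood at 1164.5, 8823.5, 34270.5 and 45694 in the same order, so the same gene had its highest level with both treatments there. Igtp in neutrophils was likewise at 2237 with IL-10, 3663.5 with LPS and 1439.5 with both. Irgm2 in mast cells was at 503 untreated, 1977 with LPS and 548 with both.

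Sensors were lowered in 3 of 3 cases in mast cells and 2 of 3 in neutrophils. Ddx58 in mast cells stood at 1406 untreated, 6773.5 with LPS and 1820 with both (-1.90), and in macrophages at 1024, 8662 and 7248 (-0.26). Ifih1 was at 6415.5 with LPS and 2236 with both in neutrophils (-1.52), 946 and 416 in mast cells (-1.18), 17700.5 and 9350.5 in sDCs (-0.92) and 36033.5 and 20326 in macrophages (-0.83). Ifih1 thus had a lower mean with IL-10 in all 4 cell types, by less than 2-fold in the last 2.

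Of the Oas genes, 7 of 8 were lowered in mast cells, 5 of 8 in neutrophils, 1 of 8 in sDCs and 0 of 8 in macrophages. All 8 log2 changes were below 0 in each of the 4 cell types. Oasl2 was the only member lowered in 3 cell types, from 13041 to 6388.5 in sDCs (-1.03), from 5795.5 to 2420 in neutrophils (-1.26) and from 790.5 to 195 in mast cells (-2.01), and was at 15125 and 10861 in macrophages (-0.48). In neutrophils its level with both was below the untreated 5030.5. Oasl1 changed by -2.40 in mast cells, -1.48 in neutrophils, -0.93 in macrophages and -0.42 in sDCs.

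Among other effectors, Rtp4 (-2.49) and Xaf1 (-2.31) had the largest falls in mast cells with Oasl1, and Nmi, an interactor of Myc and STAT proteins, kept the smallest part of its LPS rise in neutrophils (300 untreated, 847 with LPS, 333.5 with both). Ifi44 was lowered in sDCs (684.5 to 307). Parp14 was lowered in neutrophils from 15439 to 5439.5 (-1.50) and in mast cells from 5463.5 to 1638.5 (-1.74), and its log2 change was -0.57 in sDCs and -0.33 in macrophages. Parp9 was lowered in the same 2 cell types.

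Stat2 was lowered in neutrophils from 6294 to 2509 (-1.33), with -0.85 in mast cells, -0.54 in sDCs and -0.16 in macrophages. The log2 changes of Stat4 were -0.86 in macrophages, -0.36 in mast cells, -0.35 in neutrophils and -0.17 in sDCs, and those of Stat6 were 0.12, -0.35, -0.07 and -0.24.

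Trim genes were lowered in 6 of 20 cases in mast cells, 3 of 20 in neutrophils, 1 of 20 in sDCs (Trim30d, 9881 to 4824.5) and 0 of 20 in macrophages. Trim30b was the only member raised with IL-10 and LPS over LPS. It stood at 35 untreated, 150 with IL-10, 605.5 with LPS and 1439 with both in macrophages (1.25 against LPS), and at 1225.5, 2475, 2889.5 and 7179 in neutrophils (1.31). In sDCs it was at 1127 with LPS and 664.5 with both, and in mast cells at 79.5 and 67.5. Of its 4 transcripts, which were summed by name over separate Ensembl genes, 4 were raised in macrophages and 2 in neutrophils. The transcript of the separate gene was at 1220.5 with LPS and 2315.5 with both in neutrophils. Its neighbours did not share this, with log2 changes in macrophages and neutrophils of -0.01 and -0.25 for Trim30a, 0.07 and -1.21 for Trim30c and -0.21 and -0.75 for Trim30d.

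**Figure D5:**
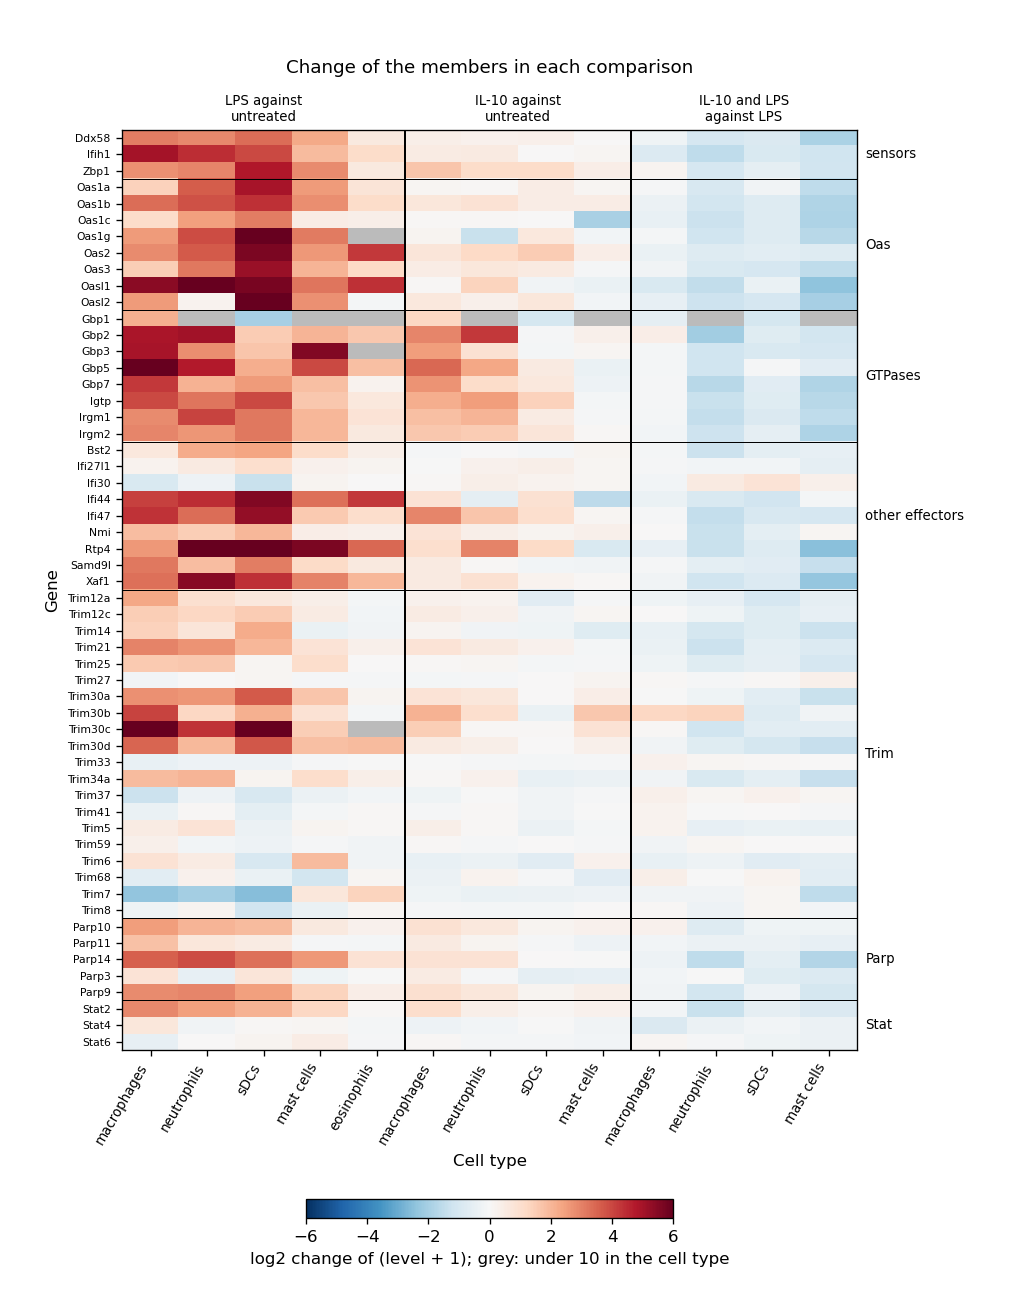
Log2 change of (level + 1) of the members (rows, by list) in the 13 comparisons (columns, by cell type). Red marks higher and blue lower levels, and grey marks genes under 10 in that cell type. The LPS columns are mostly red from the sensors to the other effectors, IL-10 alone is red for GTPases in macrophages and neutrophils, and IL-10 and LPS against LPS is blue in neutrophils and mast cells and near white in macrophages.

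Of the 22 pathway genes, IL-10 and LPS against LPS lowered 5 in neutrophils, 3 in mast cells, 2 in sDCs and 0 in macrophages. Usp18 was among them in neutrophils (5871.5 to 1410), mast cells (1688 to 406.5) and sDCs (9407 to 4364). Emr1 in neutrophils was at 14667.5 with LPS and 5157.5 with both. The other macrophage markers were higher with both, Itgam at 26225 and 36909.5, Cd68 at 3140 and 4387.5 and Mrc1 at 124.5 and 613. Among neutrophil markers Cxcr2 was at 3210 and 19833, Mmp8 at 17265 and 29556 and Mmp9 at 12701.5 and 18626. Mpo (20675 and 20878) and Elane (10179 and 12371.5) differed less, and Ly6g was lower (158.5 and 70.5). The part of these markers in the neutrophil result was not tested. The 2 mast cell replicates differ in library kit, which the means do not show.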

How the data were processed

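RSEM 1.2.1 and Bowtie 0.12.9 assigned reads to transcripts of Ensembl v67, build mm9, per the labels and methods. The authors then normalized tag counts for GC content with EDASeq and averaged 2 replicates per group. The deposited values (unit score) are multiples of 0.5, with the same highest value, 185338, in all 18 columns. The copy used here has 16993 transcripts of 6509 genes, and 22 lines without a gene name (0.129%) were left out. The CD4+ T cell sample has no column and was not used here.

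Transcripts were summed per gene (members: 175 transcripts). In each cell type, genes that reached 10 in some group were used. Changes were taken on log2(sum + 1), which understates those of low genes, and called at 2-fold. Calls were checked on simulated data without noise, with changes well beyond 2-fold in genes that were not low, so recovery was certain. The check says nothing about low levels, changes near 2-fold or the spread between replicates, since the table holds means only. Means allow no test, so planned counts of calls replaced tests. The authors' own tests (DESeq) are not in the table. Members and lists were chosen with earlier results of these data known. The values of 1 member, which stays in the counts and medians, are neither plotted nor reported here. Genes named were the Stat, Oas and sensor genes, the 8 largest calls per comparison, genes called alike or oppositely in several cell types, those lowered by IL-10 in 3 or more, and each list's highest and lowest levels. All others named (Nmi, Ifi27l1, Irf1, Usp18 and further Trim and Parp genes) illustrate a list and were picked after their values were seen. Positions are from GENCODE vM1 (172 of 175 transcripts matched). Python 3.11.15, numpy 2.4.6, pandas 2.3.3 and matplotlib 3.10.9 were used. Alternatives were 0.1 or 10 added before log2, minimums of none or 50, a 1.5-fold call, single transcripts, and centring on the median gene.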

Additional observations from a re-analysis of the deposited data

Results flagged for a closer look

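Gbp1 had changes of opposite direction in macrophages and sDCs. With IL-10 alone its log2 change was 1.25 in macrophages (3.0 to 8.5) and -1.04 in sDCs (52.5 to 25.0), and with LPS it was 2.13 in macrophages (3.0 to 16.5) and -1.99 in sDCs (52.5 to 12.5). These are the lowest levels of any member, and the IL-10 calls were lost with 10 added before log2 (0.51 and -0.84).

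Trim7 went down with LPS in macrophages (-2.38), neutrophils (-2.05) and sDCs (-2.57), and its log2 change in eosinophils was 1.35 (10 to 27), or 0.89 with 10 added. For both genes the difference between cell types was not tested, since each group has 1 mean.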

How the results depend on the processing

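No paired analysis was possible because the columns hold means of the 2 replicates, and for the same reason no replicate could be left out. The 13 counts of raised or lowered members stayed within 1.5 times of the reported number with 0.1 or 10 added before log2, with no minimum and with centring. No called gene changed direction under these settings or the minimum of 50. None of these settings could reverse a 2-fold call here, so nothing is read from that. With a minimum of 50, LPS raised 7 of 46 members in eosinophils. At 1.5-fold, IL-10 and LPS against LPS lowered 3 members in macrophages (10.1% of all genes) and 28 in sDCs (5.93%). IL-10 alone raised 25 in macrophages (5.23% of all genes), 11 in sDCs (4.45%), 21 in neutrophils (3.23%) and 2 in mast cells (4.59%). Called as single transcripts, which are more numerous, LPS raised 133 of 171 in macrophages, 121 of 166 in sDCs, 111 of 164 in neutrophils, 23 of 122 in eosinophils and 90 of 148 in mast cells. Of the same totals of transcripts, IL-10 and LPS lowered 18 in macrophages, 34 in sDCs, 76 in neutrophils and 74 in mast cells. IL-10 alone raised 55, 19, 43 and 11 in the same order. All 13 counts moved beyond 1.5 times under this setting, and in macrophages 0 lowered genes became 18 lowered transcripts. Shares over all transcripts were not computed, so these counts are not read as results about the members. For 6 of 266 gene calls, 1 transcript was called the other way, as for Irgm1 with IL-10 in neutrophils (gene 282.5 to 1147, transcript 210.5 to 2.5), Trim25 with LPS in macrophages (2991 to 8928 and 237.5 to 0), Stat2 with IL-10 in macrophages and with IL-10 and LPS against LPS in neutrophils, and Gbp3 in neutrophils and Oasl2 in sDCs, both with IL-10 and LPS. Members with transcripts called both ways were found in 11 of the 13 comparisons (22 cases). The median of all genes shifted by over 0.1 with LPS in macrophages (-0.15) and sDCs (-0.14). Centring on it took 3 single calls under 2-fold (Trim8 with LPS in sDCs, Gbp3 and Ifi47 with IL-10 and LPS in mast cells), and adding 10 took 10. The spread between replicates and the depth are not known from the table, so a 2-fold difference between means may lie within them.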
